A study of Mus musculus with 12 samples.

Results

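Lymphocyte trafficking receptors are the surface proteins that steer NK and T cells into, through and out of tissues. From the tumor count table, 7 of them were taken by symbol: the chemokine receptors Cxcr3, Cxcr6, Ccr2, Ccr7 and Cx3cr1 and the sphingosine 1-phosphate receptors S1pr1 and S1pr5. They were read beside 21 further chemokine receptors, including atypical ones, and S1P receptors among 54232 gene identifiers, of which 23707 had at least 1 count. The libraries came from NK cells (sorted as CD45+, CD3ε- and NK1.1+) and CD8 T cells (sorted as CD45+, CD3ε+ and CD8a+) of tumors of MC38, a transplanted mouse colon adenocarcinoma line, taken 8 to 10 days after injection under the skin. The hosts were C57BL/6N mice of 6 to 12 weeks that were wild type (WT), lacked the Janus kinase TYK2 (Tyk2-/-, strain B6N.129P2-Tyk2tm1Biat, here KO) or carried the kinase-inactive TYK2 K923E protein (strain B6.129P2-Tyk2tm3.1(K923E)Biat, here KE). All cells of a mutant host carry the allele, so the tumor surroundings of the sorted cells differ in genotype too. Each of the 6 groups held 2 libraries of 300 cells, made with Smart-seq2, which amplifies polyadenylated RNA from few cells. Neither the labels nor the methods say that the 2 libraries of a group came from different animals, so p-values measure the spread between these libraries.

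Chemokine receptors and S1P receptors are G protein-coupled receptors that turn a gradient of ligand into directed movement. CXCR3 binds the interferon-inducible chemokines CXCL9 and CXCL10, CXCR6 binds CXCL16, CCR2 binds CCL2, and CX3CR1 binds fractalkine. CCR7 brings lymphocytes into lymph nodes. S1PR1 draws T cells out of lymph nodes toward the higher S1P of lymph and blood, and S1PR5 serves the exit of NK cells from bone marrow and lymph nodes. TYK2 transmits the signals of type I interferons and interleukin-12, which act on both cell types studied here.

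The start site windows of 4 receptors are shown because these carry main contrasts and had a matched window: S1pr5 and Ccr2 were higher in NK cells, Cxcr6 was higher in CD8 T cells, and Cxcr3 of the mutants lay on opposite sides of WT in the 2 cell types. Ccr7, also higher in CD8 T cells, had no matched window, and neither had S1pr1. Each window runs from 250 bases before to 50 bases after the RefSeq start (GRCm38.p6), 5′ to 3′ on the gene's own strand. RefSeq windows matched 5 of the 7 genes (these 4 and Cx3cr1). Capitals mark a match to 1 of 4 motifs, searched on both strands: the core of the interferon-stimulated response element (ISRE: GAAA, any 2 bases, GAAA), TTCNNNGAA (the STAT-binding GAS element), GGTGTGA (bound by T-box factors) and TGTGGTT (bound by RUNX factors).
S1pr5, chr9:21248394-21248693, minus strand: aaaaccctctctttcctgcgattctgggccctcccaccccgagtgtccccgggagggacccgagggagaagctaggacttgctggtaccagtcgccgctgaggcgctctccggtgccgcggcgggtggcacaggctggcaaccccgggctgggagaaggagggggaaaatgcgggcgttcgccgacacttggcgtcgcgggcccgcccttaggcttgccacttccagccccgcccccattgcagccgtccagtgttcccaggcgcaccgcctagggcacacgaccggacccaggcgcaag
Ccr2, chr9:124101933-124102232, plus strand: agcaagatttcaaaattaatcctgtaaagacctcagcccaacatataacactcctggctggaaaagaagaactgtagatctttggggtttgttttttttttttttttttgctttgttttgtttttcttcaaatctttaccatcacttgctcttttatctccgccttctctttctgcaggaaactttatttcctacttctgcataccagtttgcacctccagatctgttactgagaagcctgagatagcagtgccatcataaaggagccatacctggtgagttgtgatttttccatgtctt
Cxcr6, chr9:123806227-123806526, plus strand: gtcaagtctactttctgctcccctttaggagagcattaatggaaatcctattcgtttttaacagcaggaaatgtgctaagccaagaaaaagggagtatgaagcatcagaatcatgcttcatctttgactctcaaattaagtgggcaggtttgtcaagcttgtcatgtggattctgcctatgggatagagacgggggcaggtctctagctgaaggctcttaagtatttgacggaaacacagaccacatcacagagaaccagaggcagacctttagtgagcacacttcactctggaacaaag
Cxcr3, chrX:101734098-101734397, minus strand: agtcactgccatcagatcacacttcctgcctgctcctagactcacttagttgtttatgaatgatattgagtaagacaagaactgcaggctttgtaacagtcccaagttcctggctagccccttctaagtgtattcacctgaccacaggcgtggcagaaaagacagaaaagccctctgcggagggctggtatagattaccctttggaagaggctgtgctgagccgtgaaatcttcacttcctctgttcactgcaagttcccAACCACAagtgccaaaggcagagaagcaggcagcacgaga

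Only Cxcr3 held a match among the 5 windows: the RUNX letters on the opposite strand, as AACCACA at bases 261 to 267 of the window. Of 32851 mouse windows of this length, 5.27% held the RUNX letters, 3.44% the ISRE core, 8.3% the GAS letters and 3.98% the T-box letters. The windows differed in base composition: G and C made up 69.3% of the S1pr5 window, 54.3% for Cx3cr1, 49.3% for Cxcr3, 44.3% for Cxcr6 and 38% for Ccr2.

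Total counts per library ranged from 10378761 to 14732882, and levels are given as CPM, the counts per 1e6 counts of a library after TMM scaling. The cell type labels matched the sort markers: Klrb1c (NK1.1) lay at 1062 to 2241 CPM in the 6 NK libraries and at 1.42 to 5.08 CPM in the 6 CD8 libraries, and Cd8a at 2.68 to 4.51 against 2841 to 4108 CPM. Tyk2 lay at 55.7 to 119 CPM in NK and 47 to 86.6 CPM in CD8 libraries; both KE NK libraries (119 and 81.5 CPM) lay above the WT pair (60.6 and 68.4 CPM), and the KO libraries overlapped WT in both cell types, so the labels KO and KE could not be checked from its counts. NK libraries differed in transcripts of another cell type. The 14 macrophage and monocyte markers summed to 16704 and 14308 CPM in the WT NK libraries, 7214 and 26.3 CPM (KO), and 75.2 and 410 CPM (KE), against 53.8 to 606 CPM in the CD8 libraries. All 14 were detected in both WT NK libraries and 12 or 13 in each mutant NK library, where Cd14, Ly86, Adgre1 or Mrc1 was at 0. Lists for dendritic cells, neutrophils, B cells, CD4 T cells, tumor epithelium and stroma each summed to at most 341 CPM in any library. That highest sum, of the dendritic cell list in a KE NK library, was mostly Itgax (315 CPM), which NK cells express as well.

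The first comparison asks which receptors distinguish the NK cells from the CD8 T cells of MC38 tumors. All 7 receptors passed the filter on low counts, and 4 differed between the cell types over the 3 genotypes. Ccr2 and S1pr5 were higher in NK cells and Cxcr6 and Ccr7 were higher in CD8 T cells, by edgeR's quasi-likelihood test at an FDR under 0.05 and at least a 2-fold change. Of all 13279 genes tested, 4.53% passed this rule, 1.95% as higher and 2.58% as lower in NK cells. The same 4 receptors were those whose 6 NK and 6 CD8 libraries did not overlap, against 1.99% of all genes with every NK library above and 2.94% with every NK library below. At an unadjusted p under 0.05 were 6 of the 7 (19.3% of genes), and DESeq2 called the same 4 (11.9% of genes). The median log2 fold change of the 7 receptors was -0.6, beside 0.02 over all genes.

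**Figure D1:**
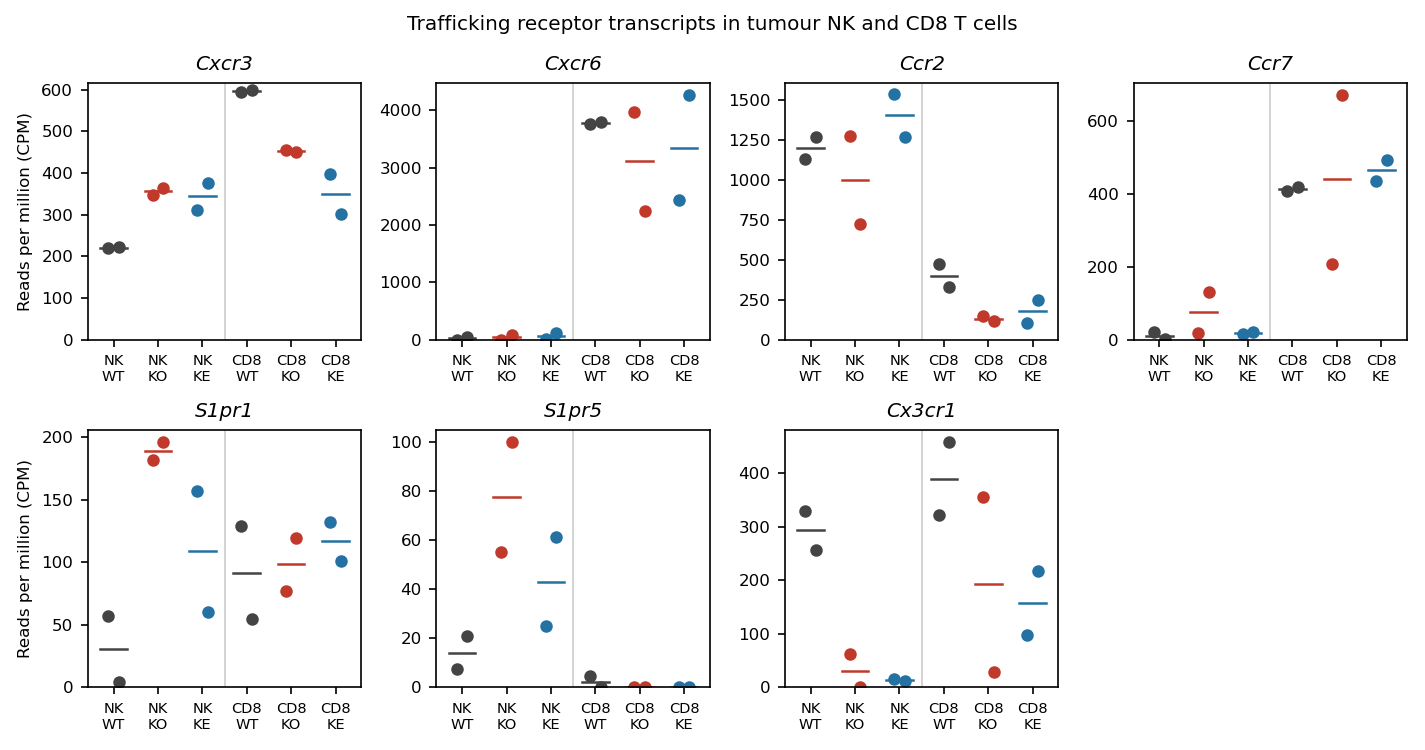
Level of the 7 receptors in each library, in CPM on linear axes that start at 0. Each point is 1 of 2 libraries of a group, bars mark group means, and colors mark WT (gray), KO (red) and KE (blue). The 6 CD8 libraries lie above all NK libraries for Cxcr6 and Ccr7 and below them for Ccr2 and S1pr5.

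Among the receptors for inflammatory chemokines, Cxcr6 (ENSMUSG00000048521, chromosome 9, 123806475 to 123811760, plus strand) was far higher in CD8 T cells. Its CD8 libraries held 3761 and 3800 CPM (WT), 3977 and 2246 CPM (KO), and 2430 and 4273 CPM (KE). NK libraries held 2.84 and 51.3 CPM (WT), 2.79 and 86.5 CPM (KO), and 4.5 and 119 CPM (KE). Every CD8 library thus lay far above every NK library, while within NK cells 1 library of each genotype, numbered 2 in the labels, lay above 50 CPM and the other under 5 CPM. NK minus CD8 was -6.34 on the log2 scale over the 3 genotypes (SE 1.2, FDR 0.0184) and -7.12 in WT alone (SE 2.16, FDR 0.272). The 10 T cell markers summed to 12368 to 16976 CPM in CD8 libraries. In NK libraries they summed to 231 and 269 CPM (WT), 320 and 580 CPM (KO), and 414 and 506 CPM (KE). This sum, like Cxcr6, was higher in the library numbered 2 of each genotype. Within NK cells the markers moved unequally: in each genotype the library numbered 2 held more Cd3d (36, 120 and 112 CPM, against 12.1, 16 and 77.2 CPM) and Cd3g, but less Trac (11.6, 24 and 20 CPM, against 23.3, 40.1 and 56.1 CPM) and Cd8b1. Cd8a, which defines the CD8 sort, stayed at 2.68 to 4.51 CPM in every NK library. The part of T cell transcripts in the Cxcr6 values was not tested. In a fit without the 4 WT libraries the Cxcr6 difference was -5.92 with an FDR of 0.0799.

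Ccr2 (ENSMUSG00000049103, chromosome 9, 124101950 to 124113557, plus strand), 290.2 kb from Cxcr6 in the same cluster of receptor genes, showed the opposite pattern. Ccr2 in NK libraries lay at 1130.1 and 1269 CPM (WT), 1273 and 726 CPM (KO), and 1535 and 1268 CPM (KE). In CD8 libraries it lay at 472 and 330.0 CPM (WT), 151 and 114 CPM (KO), and 104 and 249 CPM (KE). The lowest NK library exceeded the highest CD8 library. The difference was 2.49 (log2 scale, SE 0.24, FDR 0.000196) over the genotypes and 1.58 in WT (SE 0.40, FDR 0.139). The KE NK libraries, with 1535 and 1268 CPM of Ccr2, held 75.2 and 410 CPM of the macrophage and monocyte markers. Without the WT libraries and the KO NK library richest in these markers, the difference was 2.75 (FDR 0.00875).

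Cxcr3 (ENSMUSG00000050232, chromosome X, 101731535 to 101734269, minus strand) had the smallest standard errors of the 7 genes. WT NK libraries held 219 and 222 CPM and WT CD8 libraries 594 and 598 CPM, so the groups differed by far more than their replicates. It was the only one of the 7 to pass in WT alone, where 0.776% of all genes were called (4 receptors and 10.3% of genes at an unadjusted p under 0.05, and 4 receptors and 6.2% of genes by DESeq2), with a log2 difference of -1.43 (SE 0.21, FDR 0.00972). Over the 3 genotypes the difference was -0.60 (SE 0.12, FDR 0.0153), which is under a 2-fold change, because the mutant libraries of both cell types lay between the WT groups. KO and KE NK libraries held 348, 365, 312 and 376 CPM and the CD8 libraries 456, 451, 398 and 302 CPM, which overlap. In the 8 mutant libraries alone the difference was -0.17 with an FDR of 0.751. The call in WT was lost when any 1 of the 4 WT libraries was left out (FDR 0.0698 to 0.0922) and when the macrophage markers entered the fit as a covariate (log2 difference -1.54, FDR 0.28).

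Cx3cr1 (ENSMUSG00000052336, chromosome 9, 119901616 to 120069879, minus strand) did not pass in either comparison of the cell types. CD8 libraries held 322 and 458 CPM (WT), 356 and 29.1 CPM (KO), and 98.3 and 218 CPM (KE). NK libraries held 330.0 and 257 CPM (WT), 62.1 and 0.368 CPM (KO), and 15.6 and 12.4 CPM (KE). NK and CD8 libraries overlapped in WT and in KO, whereas both KE NK libraries lay below both KE CD8 libraries. Over the genotypes NK minus CD8 was -2.18 (log2, SE 0.85, FDR 0.187). The value depended on single libraries: without the KO NK library richest in macrophage markers it was -4.30 with an FDR of 0.0099, and without the first KO CD8 library it was -1.25 with an FDR of 0.506. Of its exon bases, 78 are shared with the opposite-strand gene Gm33858, and no source says that the counting used strand.

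The lymph node homing receptor Ccr7 was higher in CD8 T cells. Ccr7 (ENSMUSG00000037944, chromosome 11, 99144196 to 99155077, minus strand) lay at 406 and 419 CPM (WT), 208 and 671 CPM (KO), and 436 and 493 CPM (KE) in CD8 libraries. In NK libraries it lay at 20.9 and 0.612 CPM (WT), 18.4 and 132 CPM (KO), and 14.8 and 21.3 CPM (KE). All CD8 libraries were above all NK libraries, with a log2 difference of -4.17 (SE 0.75, FDR 0.0087). The KO NK library at 132 CPM was also the NK library with the highest sum of T cell markers (580 CPM). Its Cd3e (51.5 CPM) was the highest of the NK libraries, and its Cd3d and Cd3g lay above those of the other KO NK library. Its Cd8a (4.49 CPM) and Cd8b1 (1.99 CPM) lay within the range of the other NK libraries, and its Trac (24 CPM) was below that of the other KO NK library (40.1 CPM). The part of T cell transcripts in its Ccr7 level was not tested. The FDR rose to 0.0556 without the first KE NK library and was 0.0276 in the fit without WT libraries, and the call was lost with the macrophage markers as a covariate (-3.23, FDR 0.182).

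The S1P receptors separated. S1pr5 (ENSMUSG00000045087, chromosome 9, 21242912 to 21248443, minus strand) lay at 7.26 and 20.9 CPM (WT), 55.2 and 99.8 CPM (KO), and 24.8 and 61.3 CPM (KE) in NK libraries. WT CD8 libraries had 59 and 3 counts (4.41 and 0.219 CPM), the KO pair 1 and 0 counts, and the KE pair none. Each NK library was above each CD8 library, and 3 of the 6 CD8 libraries had no read. The fitted log2 difference was 8.44 (SE 1.19, FDR 0.00331), a number that depends on the small count added to zeros, and in WT alone it was 2.60 (SE 1.5, FDR 0.563). Against a floor of 3 counts per library, KE NK cells were at least 182-fold above KE CD8 T cells. In KO the ratio of pooled counts, 2070 against 1, was 1949.8 with an exact 95% counting interval of 350.0 to 77048. Such intervals and floors cover counting error only, since the protocol has no molecular identifiers. S1pr5 shares 51 exon bases with the opposite-strand gene Gm48303.

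S1pr1 (ENSMUSG00000045092, chromosome 3, 115710433 to 115715072, minus strand) did not separate the cell types. CD8 libraries held 129 and 54.2 CPM (WT), 77.3 and 119 CPM (KO), and 132 and 101 CPM (KE). NK libraries held 57.1 and 4.13 CPM (WT), 182 and 196 CPM (KO), and 157 and 60.3 CPM (KE). The ranges overlapped, with a log2 difference of -0.25 (SE 0.52, FDR 0.964) whose sign changed without the second WT NK library (0.05) or without the first WT CD8 library (0.02).

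**Figure D2:**
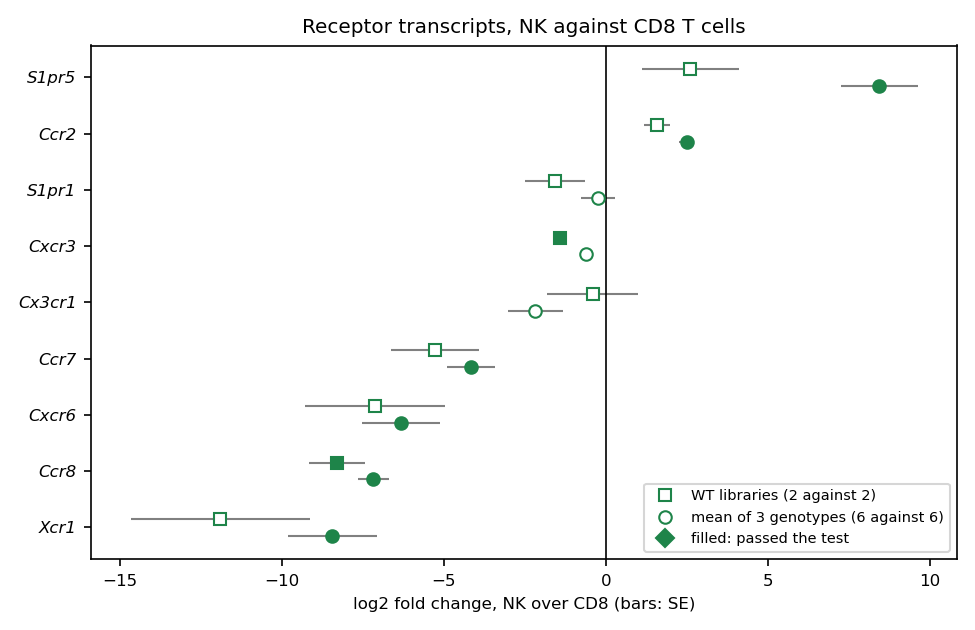
Log2 fold change of NK over CD8 T cells for the 7 receptors and for 2 further receptors that passed the test (Ccr8 and Xcr1), in WT libraries (squares) and as the mean of 3 genotypes (circles). Bars are standard errors and filled symbols passed an FDR under 0.05 with at least a 2-fold change. S1pr5 and Ccr2 lie to the right, Ccr7, Cxcr6, Ccr8 and Xcr1 to the left, and fitted values for S1pr5 and Xcr1 rest on groups with few or no reads.

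Levels of different receptors can be compared only per length, as CPM per kb of exon (mean ± SD of the 2 libraries of a group). Ranks and neighbours are given among the 7 receptors only. Neighbours are called separate where their means lie further apart than the sum of both SDs. Of the further receptors, Ccr8 in CD8 T cells lay at 181 ± 148 (WT), 216 ± 32.1 (KO) and 216 ± 59 (KE). Ccr1 in WT NK cells lay at 67.7 ± 41.4. In WT CD8 T cells Cxcr6 led with 1958 ± 14.6, followed by Cxcr3 at 344 ± 1.38, Ccr7 at 209 ± 4.94, Cx3cr1 at 86.6 ± 21.4, Ccr2 at 59.4 ± 14.9, S1pr1 at 30 ± 17.3 and S1pr5 at 0.925 ± 1.18. Cx3cr1 was not separate from Ccr2, nor Ccr2 from S1pr1, and the other neighbours were separate. Second in the mutants of this cell type were Cxcr3 and Ccr7: Cxcr3 (262 ± 2.24) and Ccr7 (222 ± 165) of KO were not separate, and neither were Ccr7 (235 ± 20.2) and Cxcr3 (202 ± 39.4) of KE, below Cxcr6 at 1612 ± 634 and 1736 ± 675. In WT NK cells Ccr2 (177 ± 14.6), Cxcr3 (127 ± 1.16) and Cx3cr1 (65.2 ± 11.4) followed each other as separate neighbours, above Cxcr6 at 14 ± 17.8, S1pr1 at 10.1 ± 12.3, S1pr5 at 5.63 ± 3.85 and Ccr7 at 5.43 ± 7.24, which were not separate from each other. Among the mutant NK cells Cxcr3 and Ccr2 led and were not separate, at 206 ± 6.92 and 148 ± 57.2 (KO) and at 199 ± 26 and 207 ± 27.9 (KE). S1pr1 came next with 62 ± 3.4 (KO, not separate from Ccr7 at 38 ± 40.5) and 35.7 ± 22.5 (KE, not separate from Cxcr6 at 31.9 ± 41.8), and Cx3cr1 was last with 6.93 ± 9.69 (KO, not separate from Cxcr6 at 23.1 ± 30.6) and 3.11 ± 0.505 (KE).

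The genotype comparisons ask whether loss of TYK2, or of its kinase activity alone, altered these receptors. By edgeR none of the 7 receptors passed for KO or KE against WT, or for KO against KE, in either cell type. In NK cells 0% of all genes passed for each mutant against WT, with 3 and 2 receptors for KO and KE at an unadjusted p under 0.05 (6.3% and 6.02% of all genes). In CD8 T cells 0.0527% and 0.0828% of genes passed, with 2 and 3 receptors at the unadjusted level (4.79% and 5.56% of genes). KO against KE gave 0% of genes in both cell types and 0 receptors at the unadjusted level (3.81% of genes in NK and 3.63% in CD8 T cells). DESeq2, run as an alternative, called 0 receptors in NK KO and NK KE (2.85% and 2.93% of genes), 1 in CD8 KO (Ccr2, with 1.76% of genes) and 1 in CD8 KE (S1pr5, with 2.49% of genes). KO against KE gave 0 receptors by DESeq2 too, with 1.54% of genes in NK and 1.18% in CD8 T cells. Both mutants were set against the same WT libraries, so their values are not independent of each other.

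The filter on low counts bears on these calls. Without it, with 23707 genes in the fit, edgeR called Cx3cr1 (FDR 2.86e-08), Ccr7 (FDR 5.36e-08) and S1pr1 (FDR 0.00254) for KO NK cells, where 0.823% of genes passed, and Cx3cr1 (FDR 8.18e-15) and Cxcr6 (FDR 2.12e-05) for KE NK cells, where 1.08% passed. Both NK mutants averaged gave Cx3cr1, Ccr7 and S1pr1 (1.58% of genes). For CD8 T cells the calls were Ccr2 in KO (FDR 1.95e-05, 0.523% of genes), Ccr2 (FDR 0.00655) and S1pr5 (FDR 0.0469) in KE (0.78%), and the same pair in both mutants averaged (0.882%). KO against KE gave Ccr7 in NK cells (FDR 0.000425, 0.405% of genes) and 0 receptors in CD8 T cells (0.346%). The interaction for KO gave Ccr7 (0.553% of genes), and that for KE gave Cx3cr1, Cxcr6, S1pr5 and Ccr2 (0.818%). Between the cell types the unfiltered fit called Cxcr6, Ccr7, Ccr2 and Cxcr3 in WT (2.27% of genes), and Cxcr6, Ccr7, Ccr2, S1pr5 and Cx3cr1 over the genotypes (5.19%). Some of these calls fall on groups whose libraries overlap, such as Cxcr6 in KE NK cells (4.5 and 119 CPM, against 2.84 and 51.3 CPM in WT) and Ccr7 in KO NK cells (18.4 and 132 CPM, against 20.9 and 0.612 CPM). Why the filter changes them was not tested.

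**Figure D3:**
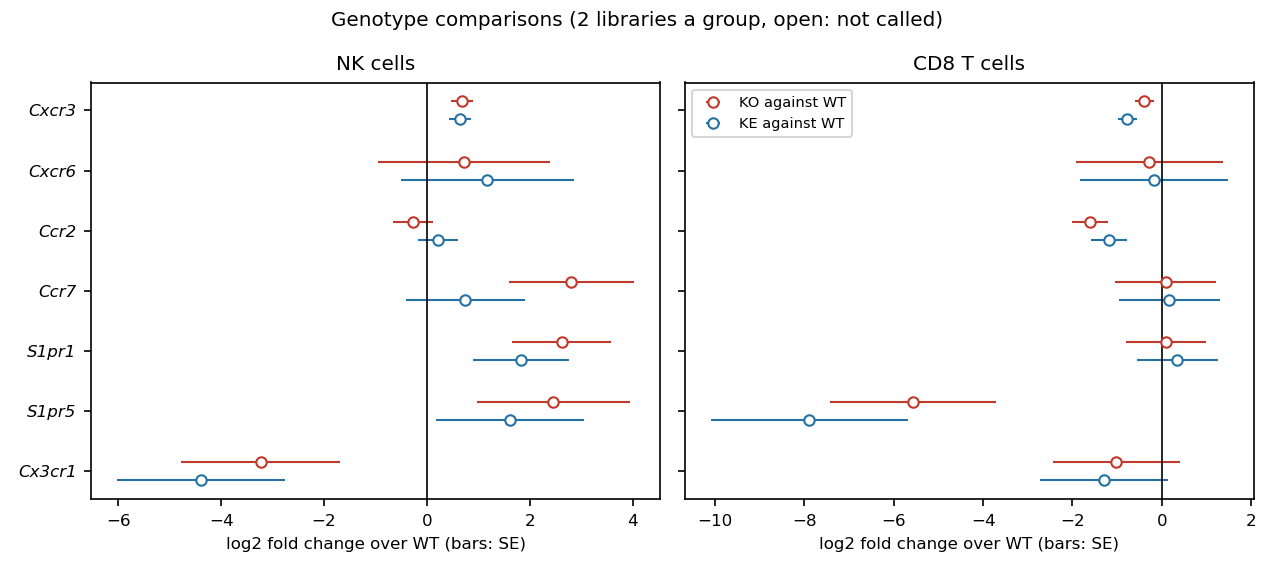
Log2 fold change over WT of the 7 receptors in KO (red) and KE (blue), with standard errors as bars, for NK cells (left) and CD8 T cells (right), 2 libraries in each group. No value passed the test. Cxcr3 has the narrowest bars and lies to the right of 0 in NK cells and to the left in CD8 T cells, and the S1pr5 values in CD8 T cells rest on 62 counts in WT against 1 and 0.

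Position relative to WT can be read from the libraries themselves. In NK cells all 4 mutant libraries lay above both WT libraries for 3 receptors (Cxcr3, S1pr1 and S1pr5), which 7.06% of all genes did, and below them for Cx3cr1, which 10.8% did. In CD8 T cells all 4 mutant libraries lay below both WT libraries for Cxcr3, Ccr2 and S1pr5 (7.52% of all genes) and above them for 0 receptors (6.8%). For S1pr5 this position is at the limit of counting, since the second WT CD8 library had 3 counts, the floor used here, against 1, 0, 0 and 0 in the mutants. Cxcr3 and S1pr5 lay above WT in NK and below WT in CD8 T cells, as 0.339% of all genes did, and 0 receptors did the reverse (0.505% of genes). With the 4 mutant libraries pooled, Cxcr6 and Ccr7 overlapped WT in both cell types, as did Ccr2 in NK cells and S1pr1 and Cx3cr1 in CD8 T cells. Among these the KE pair of CD8 libraries on its own lay below both WT libraries for Cx3cr1 and above both for Ccr7, as 16.2% and 16.3% of all genes did in this comparison of 2 with 2 libraries.

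Cxcr3 in NK cells averaged (± SD, n = 2) 221 ± 2.01 CPM (WT), 357 ± 12 CPM (KO) and 344 ± 44.9 CPM (KE), differences larger than the replicate spread that did not pass the adjusted test. For KO the log2 fold change was 0.69 (SE 0.21, unadjusted p 0.00689, FDR 0.616), and for KE it was 0.64 (SE 0.21, unadjusted p 0.0108, FDR 0.652). In CD8 T cells the means were 596 ± 2.4 CPM (WT), 453 ± 3.88 CPM (KO) and 350 ± 68.3 CPM (KE). The log2 fold change was -0.39 for KO (SE 0.21, unadjusted p 0.0834, FDR 0.887) and -0.77 for KE (SE 0.21, unadjusted p 0.00378, FDR 0.504). The difference of the mutant effects between NK and CD8 T cells, tested as an interaction, was 1.09 for KO (SE 0.29, unadjusted p 0.00365, FDR 0.782) and 1.41 for KE (SE 0.29, unadjusted p 0.000634, FDR 0.392). Of all genes, 0.00753% and 0% passed the 2 interaction tests, and edgeR called 0 of the 7 receptors in either, with 3 at an unadjusted p under 0.05 in each (5.29% and 6.21% of genes). DESeq2 called the Cxcr3 interaction for KE (1.41, FDR 0.00347) but not for KO, with 2.09% and 1.44% of all genes called. Within NK cells WT held the most macrophage transcripts. With the mean marker level as a covariate the log2 fold changes of Cxcr3 for KO and KE kept their direction, and 0 of all genes passed. That level was highest in WT, so this fit cannot fully tell the transcripts apart from genotype. The 10 NK markers differed from each other. In all 4 mutant NK libraries 3 lay above both WT libraries (as 7.06% of all genes did) and 2 below (Gzma and Prf1, as 10.8% did), and 5 overlapped. Those above were Ncr1 (840 and 927 CPM in WT, 1224 to 2276 CPM in the mutants), Klrb1c (1062 and 1424 CPM, against 1549 to 2241 CPM) and Klre1 (530 and 902 CPM, against 944 to 1391 CPM). Gzma lay at 9096 and 9573 CPM in WT and at 5689 to 7201 CPM in the mutants. The part of these differences in the Cxcr3 values was not tested.

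Of the S1P receptors, S1pr1 and S1pr5 lay higher in mutant NK cells without passing the test. In the order WT, KO and KE, S1pr2 averaged 47.2, 42.3 and 24.8 CPM there, and S1pr4 47.1, 48.6 and 79.7 CPM. S1pr1 averaged 30.6 ± 37.5 CPM (WT), 189 ± 10.4 CPM (KO) and 109 ± 68.4 CPM (KE). On the log2 scale KO differed from WT by 2.62 (SE 0.96, FDR 0.764) and KE by 1.83 (SE 0.93, FDR 0.823). The size of both rested on the WT libraries: without the first the values were 5.51 and 4.71, and without the second 1.72 and 0.93. S1pr5 averaged 14.1 ± 9.63 CPM (WT), 77.5 ± 31.5 CPM (KO) and 43 ± 25.8 CPM (KE). The corresponding log2 differences from WT were 2.46 for KO (SE 1.49, FDR 0.765) and 1.61 for KE (SE 1.44, FDR 0.977). When single libraries were left out they ran from 1.89 (without the first WT NK library) to 3.41 (without the second) for KO, and from 0.82 (without the second KE NK library) to 2.57 (without the second WT NK library) for KE. Both receptors ran against the macrophage and monocyte markers over the 6 NK libraries, with a Pearson correlation of log2 CPM with the log2 marker sum of -0.58 for S1pr1 and -0.62 for S1pr5, given as a description. With the mean marker level as a covariate the log2 fold changes of S1pr1 and S1pr5 for KO and KE kept their direction, and 0 of all genes passed. That level was highest in WT, so this fit cannot fully tell the transcripts apart from genotype.

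S1pr5 in CD8 T cells had 62 counts in WT, 59 of them in 1 library, 1 count in KO and 0 in KE. WT was at least 9.79-fold above KE, and the ratio of WT to KO counts was 57.2 with an exact 95% counting interval of 9.89 to 2294. Both folds rest on the library with 59 counts, since the other WT library had 3, the floor used here. The effect of either mutation in NK minus that in CD8 T cells was 8.02 for KO (SE 2.38, FDR 0.895) and 9.51 for KE (SE 2.63, FDR 0.638), while DESeq2 called both (FDR 0.0379 and 0.0149). Without the WT CD8 library that held 59 of the counts these values were 4.70 and 6.17. The 10 NK markers of that library summed to 8174 CPM, against 1578 to 2994 CPM in the other CD8 libraries. Gzma alone made up 6264 CPM of it (17.2 to 1131 CPM in the others), while the NK-defining Klrb1c (2.31 CPM) and Ncr1 (1.64 CPM) lay within the range of the other CD8 libraries. S1pr5 lies 111.7 kb from Tyk2 on chromosome 9, and S1pr2 lies 127.3 kb from it on the other side. Of 108 genes within 1 Mb of Tyk2, 49 were tested and 0 passed in KO or KE against WT in either cell type, with 2, 0, 3 and 3 at an unadjusted p under 0.05 in NK KO, NK KE, CD8 KO and CD8 KE (4.08%, 0%, 6.12% and 6.12% of the 49, beside 6.3%, 6.02%, 4.79% and 5.56% of all genes). In the KO and KE interactions 0 passed, with 6 and 4 at the unadjusted level (12.2% and 8.16% of the 49, beside 5.29% and 6.21% of all genes).

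Cx3cr1 levels in NK cells followed the macrophage markers. The receptor averaged 294 ± 51.2 CPM (WT), 31.2 ± 43.6 CPM (KO) and 14 ± 2.28 CPM (KE). Differences from WT were -3.23 for KO (log2, SE 1.54, FDR 0.765) and -4.39 for KE (SE 1.63, FDR 0.753), and the KO value was -9.60 without its macrophage-rich library and -2.24 without the other. Over the 6 NK libraries the Pearson correlation of log2 CPM with the log2 sum of the 14 macrophage markers was 0.93 for Cx3cr1, 0.92 for Ccr1, 0.35 for Ccr2, -0.63 for Ccr7 and -0.70 for Cxcr3, given as a description of 6 libraries that share genotype groups. With the mean marker level as a covariate the 2 log2 fold changes of Cx3cr1 became 0.26 and 2.83. In bulk libraries fewer cells of a type and less RNA per cell cannot be told apart. CD8 libraries held at most 606 CPM of the markers, and there Cx3cr1 reached 458 CPM in a WT library with 221 CPM of markers.

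**Figure D4:**
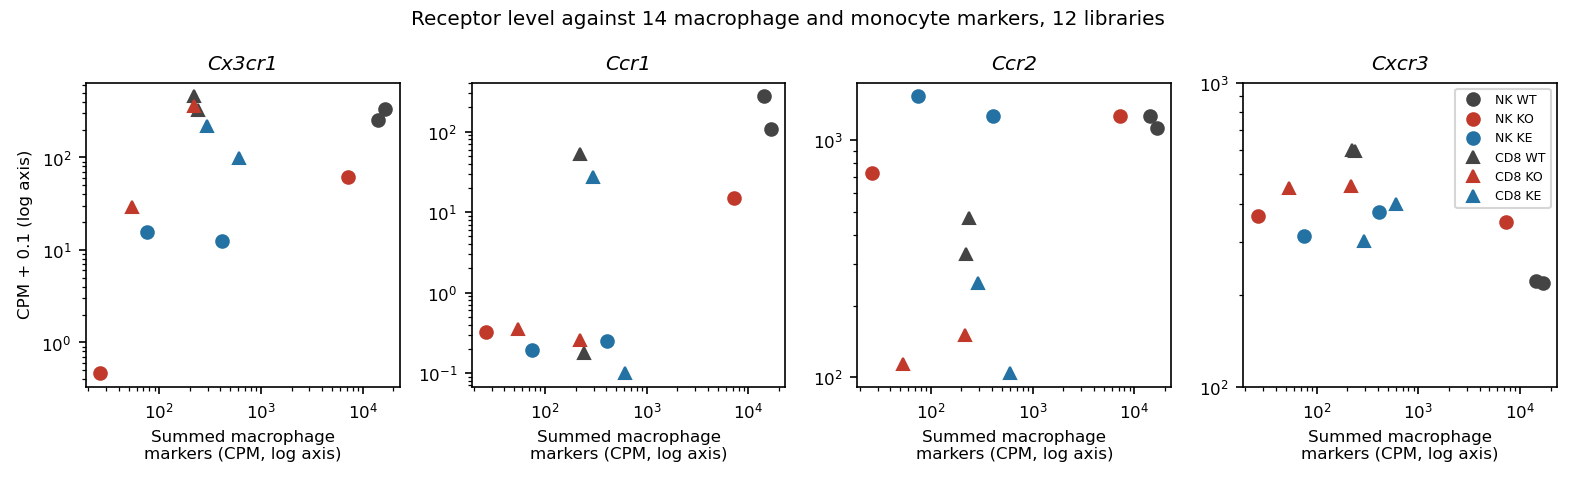
Level of 4 receptors (CPM + 0.1) against the summed level of 14 macrophage and monocyte markers in each of the 12 libraries, both on log axes. Circles are NK and triangles CD8 libraries, colored by genotype. Among NK libraries Cx3cr1 and Ccr1 are highest in the 2 WT libraries and next in the first KO library, which hold the most macrophage transcripts, while Ccr2 stays between 726 and 1535 CPM throughout.

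Ccr2 in CD8 T cells averaged 401 ± 100 CPM (WT), 132 ± 26.8 CPM (KO) and 177 ± 103 CPM (KE). The log2 difference from WT was -1.60 for KO (SE 0.40, unadjusted p 0.00244, FDR 0.573) and -1.18 for KE (SE 0.40, unadjusted p 0.0134, FDR 0.737). The KE value was -0.69 without the first KE CD8 library and -1.93 without the second, and the KO value ran from -1.83 to -1.33 when single libraries were left out. With both mutants averaged, where 0.211% of genes passed, edgeR called 0 of the 7 receptors (3 at an unadjusted p under 0.05, with 6.75% of genes) and DESeq2 called Ccr2 and S1pr5 (2.46% of genes). In NK cells the averaged mutants gave 0 receptors by edgeR (0.0301% of all genes) and by DESeq2 (3.37%), with 3 at an unadjusted p under 0.05 (9.01%). Cxcr6 in CD8 T cells had mutant means within the replicate spread, at 3780 ± 28.2, 3112 ± 1224 and 3351 ± 1303 CPM for WT, KO and KE. Ccr7 averaged 412 ± 9.78, 440.0 ± 327 and 465 ± 40 CPM there, and its KE libraries both lay above WT with a log2 fold change of 0.17 (SE 1.13, FDR 1). In NK cells Ccr7 averaged 10.7 ± 14.3, 75.1 ± 80.2 and 18 ± 4.6 CPM, and its log2 fold change for KO, 2.81 (SE 1.22, FDR 0.765), was 0.78 without the KO library at 132 CPM and 6.92 without the first WT library.

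Of the 21 further receptor genes 12 passed the filter. Between NK and CD8 T cells over the 3 genotypes 2 of the 12 passed, Ccr8 and Xcr1, both lower in NK cells (4.53% of all genes passed, 2.58% as lower). Ccr8, known from tissue-resident and regulatory T cells, lay at 90.1 to 336 CPM in CD8 libraries and at 0.25 to 14.1 CPM in NK libraries, a log2 difference of -7.18 (SE 0.48, FDR 1.33e-05). Within NK cells its level was 10.7 and 14.1 CPM (KE) against 0.25 to 1.07 CPM in the 4 WT and KO libraries, with a log2 fold change over WT of 4.2 (SE 0.75, FDR 0.162), which DESeq2 called (FDR 8.17e-06) and edgeR called without the filter on low counts (FDR 5.6e-09). Xcr1, best known as the XCL1 receptor of cross-presenting dendritic cells, lay at 8.42 to 42.1 CPM in CD8 and 0 to 1.48 CPM in NK libraries (log2 difference -8.45, SE 1.37, FDR 0.00685). In WT it was at least 157-fold higher in CD8 T cells. The call was lost in the fit without WT libraries (-6.71, FDR 0.0899) and with the macrophage markers as a covariate (-9.03, FDR 0.112).

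Among the remaining genes that passed the filter, Ccr1 reached 109 and 275 CPM in the WT NK libraries and at most 14.8 CPM in the other NK libraries, in step with the macrophage markers given above. In CD8 libraries Ccr1 lay at 0 to 52.6 CPM, with a correlation with the markers of 0.02. Its highest levels there were 52.6 CPM (second WT library) and 27.2 CPM (second KE library), where the markers summed to 221 and 294 CPM. S1pr4 lay at 46.9 to 95.9 CPM in NK and 6.6 to 140.0 CPM in CD8 libraries, S1pr2 at 8.97 to 75.6 and 0 to 73.4 CPM, Cxcr4 at 21.8 to 55.4 and 0.231 to 37.9 CPM, and Ccrl2 at 42.1 to 146 and 21.5 to 160.0 CPM, all with overlap of the cell types. Ccr1l1, Ccr3, Ccr9, Ccr10 and Cxcr5 passed the filter through 1 to 3 libraries and reached at most 13.3, 26.9, 24.5, 11 and 17.2 CPM, and Ccr9 shares 347 exon bases with other genes.

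Genes that act with the receptors were taken from fixed lists. Of 19 chemokine ligand genes 13 were tested and 1 passed anywhere: Xcl1, which encodes the ligand of XCR1. It passed in CD8 KE (0.0828% of all genes) and in both CD8 mutants (0.211%). Between the cell types it passed in WT (0.776%) and over the 3 genotypes (4.53%). Xcl1 in CD8 libraries lay at 21.4 and 32.8 CPM (WT), 199 and 194 CPM (KO), and 1434 and 377 CPM (KE), while NK libraries held 522 to 1520.4 CPM. Both mutant CD8 groups were above WT, with a log2 fold change of 5.06 for KE (SE 0.65, FDR 0.034) and 2.86 for KO (SE 0.59, FDR 0.279), and 3.96 for both mutants (SE 0.59, FDR 0.0312). The KO difference was called by DESeq2 (2.82, FDR 2.36e-05) and by edgeR without the filter on low counts (FDR 3.47e-16). The call for KE was lost when any 1 of 8 libraries was left out (both WT and both KO libraries of either cell type, FDR 0.0588 to 0.331), in the CD8 libraries alone (5.05, FDR 0.282) and with the macrophage covariate (5.03, FDR 0.0893). That for both mutants was lost without any 1 of the same 8 (FDR 0.0546 to 0.433), in the CD8 libraries alone (3.94, FDR 0.239) and with the covariate (3.97, FDR 0.0814). A block on the replicate number ended both calls as well, with log2 fold changes of 5.13 (FDR 0.0617) and 4.01 (FDR 0.0743). NK minus CD8 was 2.34 (SE 0.33, FDR 0.00243), a call that ended without the WT libraries (1.17, FDR 0.227). The median log2 fold change of the 13 ligand genes in NK cells was -2.49 for KO and -4.61 for KE, beside -0.01 and 0 over all genes, with 0 called, and Cxcl16, for example, lay at 228 and 317 CPM in the macrophage-rich WT NK libraries against 82.6, 0.147, 0 and 12 CPM in the mutants.

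Of 10 genes of S1P synthesis, breakdown and transport 6 were tested, and 0 passed in any of the 12 comparisons, where 0% to 4.53% of all genes did. Of 13 transcription factors and surface regulators known to set trafficking receptors, such as Klf2 and Tbx21, 12 were tested and 0 passed, with median log2 fold changes over WT of 0.01 (KO) and -0.10 (KE) in NK cells and of -0.13 (KO) and -0.26 (KE) in CD8 T cells. All 21 genes of receptor signaling (G proteins, arrestins, kinases and RGS proteins) were tested and 1 passed between the cell types (4.53% of all genes over the 3 genotypes). Rgs16, which shortens G protein signals, was lower in NK cells, at 35 to 96.5 CPM against 356 to 787 CPM in CD8 libraries (log2 difference -3.28, SE 0.32, FDR 0.00021). In genotype comparisons 0 of the 21 passed (0% to 0.211% of all genes).

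The genes whose log2 CPM followed each receptor most closely over the 12 libraries were found by Pearson correlation and are a description only, as the points share cell types and genotypes. Cxcr6 ran with Cd3g (0.982) and Cd3d (0.964), both parts of the T cell receptor complex, and with Trim59 (0.959). Ccr2 ran with Napsa (0.984), the Ly49 family gene Klra4 (0.973) and the kinase gene Txk (0.966). For S1pr5 the closest were the T cell receptor delta segments Trdd2 (0.971) and Trdj1 (0.968) and Gm36198 (0.95). Cxcr3 was followed by Gnptg (0.915), the adhesion receptor gene Cd2 (0.907) and Tubb4b (0.878). Ccr7 was followed by Tyms (0.949), Psmb7 (0.943) and Stambpl1 (0.931), S1pr1 by Tspan5 (0.923), Dhodh (0.918) and Stat5a (0.904), and Cx3cr1 by Gpr65 (0.918), Gm6180 (0.913) and Ly6a (0.912).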

How the data were processed

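The authors deposited raw read counts per gene for 12 libraries, neither normalized nor pooled. Per the study's methods, 50-base single-end reads were trimmed with Trimmomatic, aligned to mm10 (GRCm38) with STAR, and uniquely aligned reads in GENCODE exons were counted with summarizeOverlaps. Near-identical stretches of paralogs therefore lose reads.

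Groups came from sample titles. Counts were tested with edgeR 4.0.16 (R 4.3.3): TMM scaling, 1 mean per group over all 12 libraries, robust quasi-likelihood F-test (two-sided), mean normalized count of at least 10 (13279 genes), and FDR by Benjamini-Hochberg over all genes. Called genes had an FDR under 0.05 and changed at least 2-fold. SE is the absolute log2 fold change over the square root of F. Log2 CPM used a prior count of 2.

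DESeq2 1.42.0 and other settings were alternatives. The test script was checked on simulated data.

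The members and gene lists were chosen with earlier results of these data known. The 7 receptors are always named. Some receptor genes are not reported here. Other listed genes are named with values if called in any of the 12 comparisons or if they are receptors that passed the filter, together with the sort markers and, per receptor, the 3 genes of highest correlation. Cxcl16, Itgax, Cd14, Ly86, Adgre1, Mrc1, Cd69 and single NK and T cell markers were named after their values were seen. Symbols and positions came from a GRCm38 annotation, which named 54079 identifiers and left 153 unnamed.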

Additional observations from a re-analysis of the deposited data

Results flagged for a closer look

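Cxcr3 and S1pr5 were the receptors whose 4 mutant libraries all lay above WT in NK cells and all below WT in CD8 T cells, a pattern that 0.339% of all 13279 genes tested showed. For Cxcr3 the difference of the mutant effects, NK minus CD8, was 1.09 for KO and 1.41 for KE on the log2 scale, and for S1pr5 it was 8.02 and 9.51. The difference itself was tested as an interaction by edgeR and did not pass the FDR threshold for either gene. DESeq2 called the interaction of S1pr5 for KO (FDR 0.0379) and KE (FDR 0.0149) and that of Cxcr3 for KE (FDR 0.00347), and edgeR without the filter on low counts called that of S1pr5 for KE (9.5, FDR 0.0404). The S1pr5 values in CD8 T cells rest on 62 WT counts against 1 and 0. Of the 62, 59 were in 1 WT library, without which the differences were 4.70 and 6.17, and the other WT library had 3 counts, the floor used here, so its position above the mutants is at the limit of counting. No group had the 4 or more libraries needed to look for a single library that stands apart.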

How the results depend on the processing

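Of 36 log2 fold changes reported for single genes, 32 kept their direction under every alternative run. The exceptions were Ccr7 in NK KO (-0.15) and Cx3cr1 in NK KO (0.26) and NK KE (2.83) with the macrophage marker covariate, and S1pr1 in NK against CD8, which was 0.00 with that covariate, 0.44 and 0.47 in the fits described last, and -1.21 to 0.05 when single libraries were left out. RLE scaling in place of TMM changed no count of receptors called. DESeq2 called 1 receptor in CD8 KO, 1 in CD8 KE, 2 in both CD8 mutants, 1 and 2 in the KO and KE interactions and 4 in WT NK against WT CD8. Without the filter on low counts (23707 genes) edgeR called 3 in NK KO, 2 in NK KE, 1 in NK KO against KE, 3 in both NK mutants, 1 in CD8 KO, 2 in CD8 KE, 2 in both CD8 mutants, 1 and 4 in the KO and KE interactions and 4 in WT NK against WT CD8, and the cause was not tested. With the macrophage covariate, counts were 0 in WT NK against WT CD8 and 2 (S1pr5 and Ccr2) over the 3 genotypes, where Cxcr6 (-5.17, FDR 0.155) and Ccr7 (-3.23, FDR 0.182) lost their calls, as did Xcr1 (-9.03, FDR 0.112). Leaving out single libraries gave 0 to 1 in WT NK against WT CD8 (Ccr7 in place of Cxcr3 without the first WT NK library), 0 to 1 in both CD8 mutants (Ccr2, without the second KE CD8 library) and 3 to 5 in NK against CD8 over the 3 genotypes (in that order, 51 to 129, 4 to 32 and 406 to 559 of all genes). Over all genes edgeR called 0 to 28 in the comparisons of genotypes and interactions, 103 in WT NK against WT CD8 and 601 over the 3 genotypes, against 157 to 448, 823 and 1577 by DESeq2, 82 to 374, 537 and 1231 without the filter, and 0 to 13, 26 and 235 with the macrophage covariate. Where 1 library of a group remained, it was assumed to vary like the others.

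Libraries with the same replicate number share only the number: the differences of replicate 1 and 2 correlated between groups by -0.043 to 0.042 over 8478 genes. A replicate block gave 0 receptors in every genotype comparison, 1 in WT NK against WT CD8 and 4 in NK against CD8, as without it, with 77 and 481 of all genes in the last 2 and 17 in both CD8 mutants, and ended the Xcl1 calls in CD8 KE (5.13, FDR 0.0617) and in both CD8 mutants (4.01, FDR 0.0743) while the fold changes stayed near 5.06 and 3.96. Fits without WT libraries, and also without the first KO NK library, were chosen after seeing the data and gave 3 receptors each (S1pr5, Ccr2 and Ccr7), with 279 of 12929 and 236 of 12835 genes called. The common coefficient of variation between libraries of a group was 109%, which greater depth would not reduce.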

Other observations

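Cd69, whose protein pulls S1PR1 from the cell surface, lay in NK libraries at 494 and 297 CPM (WT), 149 and 52.6 CPM (KO), and 171 and 165 CPM (KE). All 4 mutant libraries were below both WT libraries, as 10.8% of all genes tested were in NK cells, by -1.97 for KO (log2, SE 0.50, FDR 0.576) and -1.23 for KE (SE 0.49, FDR 0.782). Neither passed the test. The 2 WT NK libraries held 16704 and 14308 CPM of the 14 macrophage and monocyte markers. With the marker covariate 0 of all genes passed for KO or KE in NK cells. The part of these transcripts in the Cd69 values cannot be fully told apart from genotype. In CD8 libraries Cd69 lay between 251 and 628 CPM with overlap of the genotypes. The gene was picked after its values were seen.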
